A study of Mus musculus with 15 samples.

Results

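The nuclear-encoded subunits of the mitochondrial respiratory chain and ATP synthase were measured by RNA sequencing (polyadenylated RNA) in primary astrocytes that were taken from mouse brain. Members were the genes whose symbol starts with a subunit prefix of complex I (Ndufa, Ndufb, Ndufc, Ndufs, Ndufv), complex II (Sdha to Sdhd), complex III (Uqcr), complex IV (Cox4i, Cox5 to Cox8) or complex V (Atp5), without assembly factors and pseudogenes. Their mean level also had to reach 1 CPM (counts scaled to parts per M of the library total) over all libraries. The prefixes matched 89 of the 25748 symbols and 83 genes were kept, so the members were chosen by their measured mean level as well as by name. Just inside the threshold lay Ndufs6b at 1.77, Ndufb4b at 2.17, Cox7a1 at 2.79 and Cox4i2 at 3.31 CPM. Outside it lay Ndufb4c at 0.481, Ndufa4l2 at 0.0531, Cox7b2 at 0.0506, Cox6a2 at 0.0239, Cox8c at 0.00376 and Cox8b at 0.00357 CPM. All 83 members also had enough counts to be tested, and 39 of them belong to complex I, 4 to complex II, 8 to complex III, 15 to complex IV and 17 to complex V.

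The 15 libraries form 3 groups of 5. Control cultures were untreated. LPS cultures, which the submitters call SCI, received 1 µg/mL of lipopolysaccharide, a bacterial cell wall component, for 6 to 8 h. Rg1 plus LPS cultures received 80 µM of ginsenoside Rg1, a saponin of ginseng, for 12 h and then the same LPS treatment. No library with Rg1 alone was analysed here. Whether replicates are separate cultures or animals is not stated in the labels, so the p-values cover the spread among these libraries, which may be technical. All 10 astrocyte markers examined were found, and their summed level was 10457 to 13172 CPM in control, 7030 to 11787 in LPS and 7332 to 11835 in Rg1 plus LPS libraries. The 8 markers of fibroblasts and meninges were also high, with sums of 7717 to 8999, 7441 to 10571 and 5026 to 11044 CPM in the same order. The 16 markers of microglia and macrophages that were found summed to 131 to 230, 134 to 216 and 118 to 146 CPM, with none at 0. The 12 neuron markers summed to 603 to 643, 529 to 682 and 489 to 699 CPM. For the 12 oligodendrocyte lineage markers the sums were 437 to 534, 398 to 493 and 393 to 531 CPM. The 5 ependymal markers found gave 85.8 to 114, 51.6 to 95.7 and 75.6 to 127 CPM. The 11 endothelial and mural markers summed to 271 to 283, 334 to 374 and 171 to 254 CPM. Of these Cldn5 was at 0 in all control libraries, Kcnj8 and Abcc9 in all LPS and Abcc9 in all Rg1 plus LPS libraries. By the test described with the results, 5 of 10 astrocyte markers were lower in LPS than in control, beside 9.82% of all genes tested. In Rg1 plus LPS 4 were higher and 1 lower than in LPS, beside 22.2% and 23.2% of all genes. Of the markers tested, 8 of 15 for microglia and macrophages and 4 of 7 for endothelial and mural cells were lower in Rg1 plus LPS than in LPS. In the same comparison 2 of 7 oligodendrocyte lineage markers were higher and 3 lower. Higher were also 1 of 8 neuron and 2 of 4 ependymal markers, and 1 of 8 fibroblast and meningeal markers was lower. The part of these cell types in the results was not tested. In such bulk samples fewer cells of a type and less RNA per cell cannot be told apart.

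The respiratory chain passes electrons from NADH (complex I) and succinate (complex II) through complex III to oxygen at complex IV, and the proton gradient built on the way drives ATP synthesis at complex V. Complexes I, III, IV and V join subunits encoded in the nucleus to a few encoded by mitochondrial DNA, while complex II is wholly nuclear. Nuclear subunit genes are known targets of the transcription factors NRF1, GABP (an ETS family factor), YY1 and ERR alpha. Astrocytes are known for strong glycolysis, and their mitochondria also respire and buffer calcium and glutamate.

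Promoters are shown as a description, and a link between their letters and the differences between groups was not tested. In RefSeq windows on GRCm38.p6 that run from 250 bases before to 50 bases after the gene start, 69 of the 83 members had an entry. Both strands were searched for exact matches to GCGCANGCG (NRF1), CCGGAAG (ETS), AAGATGG (YY1) and TNAAGGTCA (ERR), with any overlap allowed, and overlapping matches to the same letters were joined and counted as 1. The NRF1 letters stood in 27.5% of member promoters and in 6.47% of the 27025 promoters of the table, and the ETS letters in 23.2% and 9.12%. That table was not limited to the genes tested here, nor matched to the members for GC content. The YY1 letters were found in 14.5% against 6.48% and the ERR letters in 4.35% against 1.26%. At least 1 of the 4 stood in 55.1% of member promoters and in 20.8% of all, and the median GC content of the windows was 58.3% and 52.7%. Of the members higher in Rg1 plus LPS than in LPS, 55.8% of 52 promoters held a match, against 50% of the 16 promoters of members that did not pass. The following 4 promoters, chosen after their letters and values were seen, include 3 members that were higher with Rg1 (Atp5e, Cox6a1 and Cox7b) and 1 that was lower (Sdha), each 5′ to 3′ on the gene's strand with matches in capitals.
Atp5e, chr2:174464052-174464351, minus strand: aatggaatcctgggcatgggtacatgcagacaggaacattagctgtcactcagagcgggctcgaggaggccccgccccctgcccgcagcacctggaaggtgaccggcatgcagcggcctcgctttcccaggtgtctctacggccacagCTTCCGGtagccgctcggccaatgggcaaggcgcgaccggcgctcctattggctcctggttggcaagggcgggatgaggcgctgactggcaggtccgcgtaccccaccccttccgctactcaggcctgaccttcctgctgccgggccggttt
Cox6a1, chr5:115348909-115349208, minus strand: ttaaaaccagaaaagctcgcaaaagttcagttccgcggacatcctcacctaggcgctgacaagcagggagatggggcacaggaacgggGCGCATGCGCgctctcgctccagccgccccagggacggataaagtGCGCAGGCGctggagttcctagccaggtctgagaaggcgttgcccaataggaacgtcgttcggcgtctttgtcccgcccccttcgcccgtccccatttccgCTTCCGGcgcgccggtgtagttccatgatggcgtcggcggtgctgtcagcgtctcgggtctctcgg
Cox7b, chrX:106015450-106015749, plus strand: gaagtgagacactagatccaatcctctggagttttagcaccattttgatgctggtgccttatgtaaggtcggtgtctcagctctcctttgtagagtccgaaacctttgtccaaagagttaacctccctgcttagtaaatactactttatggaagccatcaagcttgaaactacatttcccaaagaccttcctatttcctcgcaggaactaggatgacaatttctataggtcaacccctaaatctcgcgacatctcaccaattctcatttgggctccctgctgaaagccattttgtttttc
Sdha, chr13:74350191-74350490, minus strand: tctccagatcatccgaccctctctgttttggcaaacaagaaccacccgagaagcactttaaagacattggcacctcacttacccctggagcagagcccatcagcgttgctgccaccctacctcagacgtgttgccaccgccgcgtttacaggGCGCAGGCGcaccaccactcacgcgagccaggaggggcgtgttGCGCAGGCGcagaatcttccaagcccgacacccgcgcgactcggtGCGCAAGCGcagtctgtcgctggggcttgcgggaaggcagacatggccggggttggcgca
Atp5e holds 1 ETS match, Cox6a1 holds 2 NRF1 matches and 1 ETS match, Cox7b holds none of the 4, and Sdha holds 3 NRF1 matches. Matches are a description of letters and not of factor binding.

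Per unit of gene length, the most abundant members in control cultures were the beta subunit gene of the F1 motor, Atp5b (555 FPKM, the deposited counts scaled to gene length and library total), Cox4i1 (423), Cox6b1 (400), Cox8a (368), Cox6c (344), Cox6a1 (343) and the F1 alpha subunit gene Atp5a1 (315 FPKM). Cox6c and Cox6a1 differed by less than their spread between libraries. The lowest were Ndufs6b (3.43), Ndufb4b (4.29), Cox4i2 (5.32) and Cox7a1 (5.66 FPKM). Among alternative isoforms, the general forms Cox4i1, Cox6a1, Cox6b1, Cox7a2 and Cox8a had the higher levels, while the tissue-restricted forms Cox6a2, Cox8b, Cox8c and Cox7b2 lay below the threshold. Cox6b2, known from testis, was an exception at 109 FPKM in control. Ndufs6b and Ndufb4b are copies of Ndufs6 and Ndufb4, and reads may have been split between copy and original.

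LPS by itself left nearly all subunit genes without a passed test. Adjusted p-values here and below are from edgeR's quasi-likelihood F-test over 15362 genes with Benjamini-Hochberg adjustment. None of the 83 members was higher in LPS than in control, against 13.8% of all genes tested, and 1 was lower, against 9.82%. At an unadjusted p under 0.05 the counts were 0 higher and 13 lower, against 3037 and 2576 of all 15362 genes. DESeq2 gave 0 higher and 3 lower, against 15.1% and 12.2% of all genes. Differences were small and mostly negative: 69 of 83 log2 fold changes were below 0, with a median of -0.06 beside -0.00 over all genes. The member that fell was Ndufc2, an accessory subunit in the membrane arm of complex I. Its level was 95.3, 101, 103, 106 and 106 CPM in the control libraries and 75.1, 78.2, 84.3, 91.6 and 91.6 CPM in the LPS libraries. Every LPS library lay below every control library (log2 fold change -0.28 ± 0.07, SE, adjusted p = 0.0104). With the trend on gene length removed, described with the next comparison, Ndufc2 was at -0.20 and did not pass (adjusted p = 0.0785), though it did with the replicate number as a block as well (adjusted p = 0.0237). With Rg1 before LPS it was 93.7, 97.8, 111, 115 and 116 CPM, which overlaps the control range and lies above the LPS range (0.34 ± 0.07 against LPS, adjusted p = 0.00116).

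The count of members lower after LPS depended on single libraries. It was 11 without LPS replicate 3, and 4 without LPS replicate 5. Leaving out Rg1 plus LPS replicate 1 or 5 also gave 4, and leaving out its replicate 3 gave 2. With scaling by library totals alone it was 15.

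With Rg1 before LPS, most but not all subunit genes were higher than with LPS alone. They belonged to complexes I, III, IV and V, and of the 4 genes of complex II none was higher; whether the complexes differ was not tested. Of 83 members 60 were higher and 2 lower, against 22.2% higher and 23.2% lower over all genes tested. The members were not matched to these genes for level or length. The median log2 fold change was 0.26, beside 0.03 over all genes, and 74 members were above 0. In 42 members every Rg1 plus LPS library lay above every LPS library, against 12.4% of all genes. Short genes as a class moved the same way. Members had a median length of 764 bases, against 3656 over all genes tested, and Spearman's rho of log2 fold change with length was -0.33 across all genes tested, a description over genes of the same libraries. With the trend on gene length removed from each library, 6 members were higher and 26 lower (all genes: 17.7% higher, 21.5% lower), and their median was -0.06. Of the 60 members higher before, 6 were still higher, 44 passed in neither direction and 10 were lower. The cause of the length trend was not tested.

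**Figure D1:**
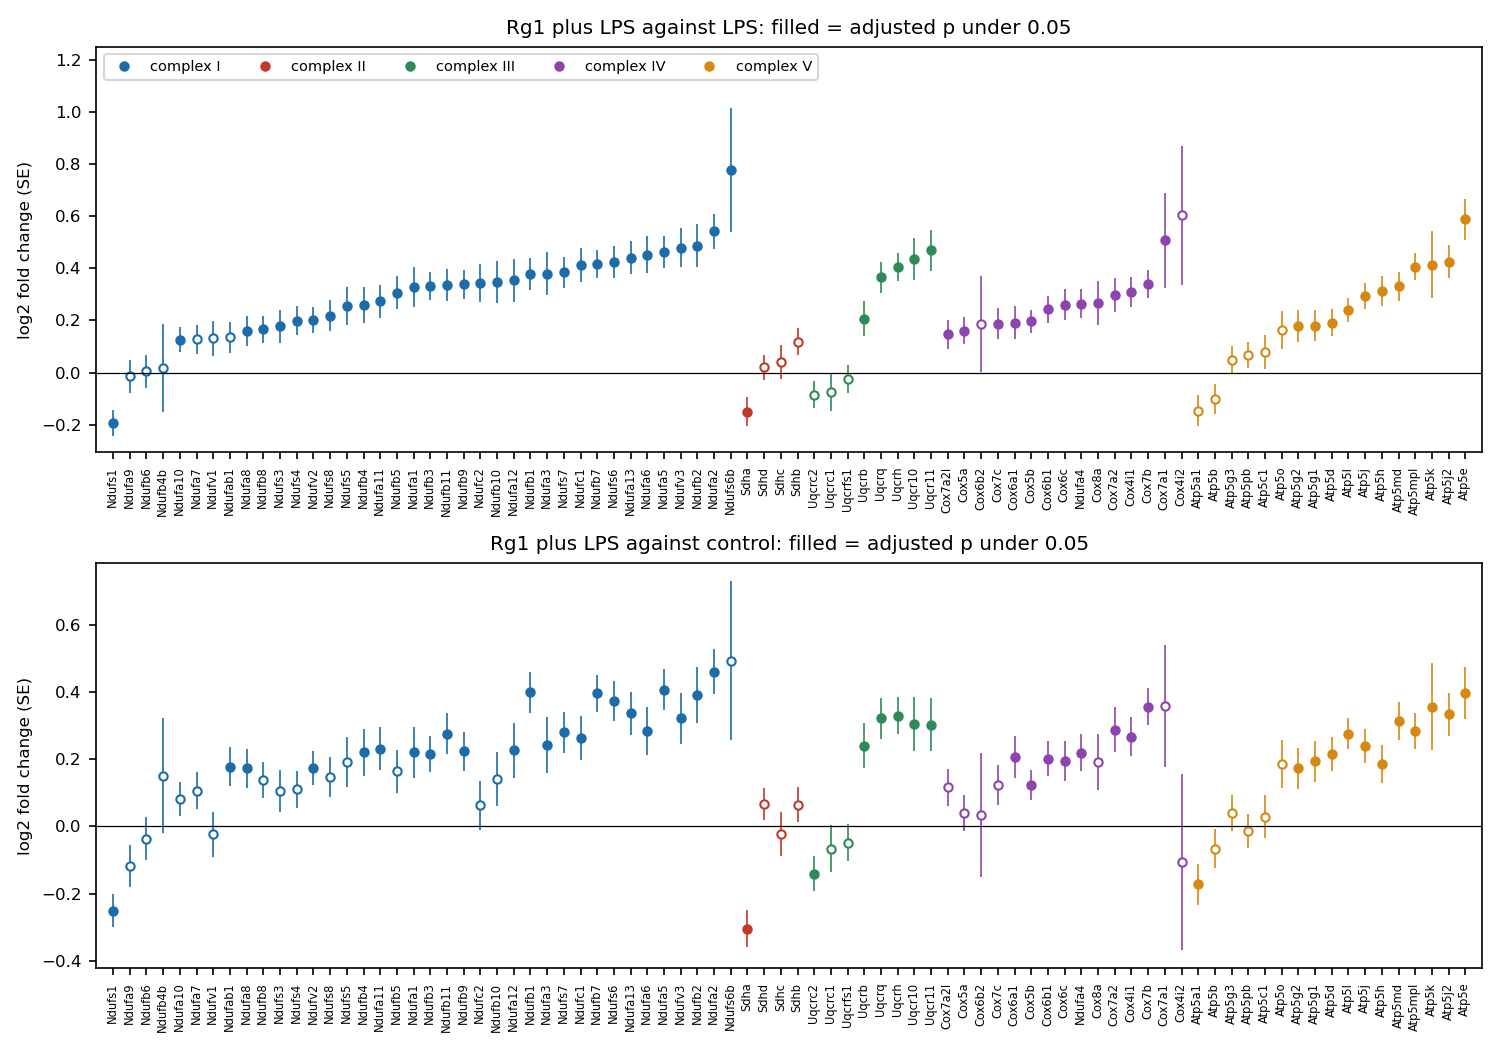
Log2 fold change of 82 of the 83 members (vertical axis, bars are SE) for Rg1 plus LPS against LPS (top) and against control (bottom), ordered by complex and by the top panel's value, with filled points for adjusted p under 0.05. In the top panel 60 filled points lie above 0 and 2, Ndufs1 and Sdha, below; in the bottom panel 46 lie above and 4 below.

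Up to 1000 bases, the median change of members lay close to that of all genes tested in the length range, members included. The share called higher was larger among members. They were not matched to the other genes for expression level, so this share does not show a larger change. In genes of up to 600 bases the median log2 fold change of Rg1 plus LPS against LPS was 0.35 for 28 members, 26 of them higher, and 0.37 for all 246 genes tested, 52.0% of them higher. From 600 to 1000 bases it was 0.31 for 21 members and 0.32 for 639 genes, with 17 members and 48.2% of all genes higher. From 1000 to 1500 bases it was 0.13 for 14 members, 7 of them higher, and 0.23 for 1127 genes, 41.2% of them higher. Above 1500 bases the medians were 0.13 for 20 members and -0.01 for 13347 genes. The members there were shorter, with a median length of 1880.5 bases against 4135, so this class is not matched for length. In this longest class 10 members were higher and 2 lower, while 18.8% of all genes were higher and 25.8% lower. The trend was also visible library by library. The median deviation of short genes outside the member list (up to 1000 bases) from their mean over all libraries ran from 0.10 to 0.30 on the log2 scale in Rg1 plus LPS libraries, from -0.20 to -0.07 in LPS and from -0.11 to -0.04 in control libraries.

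**Figure D2:**
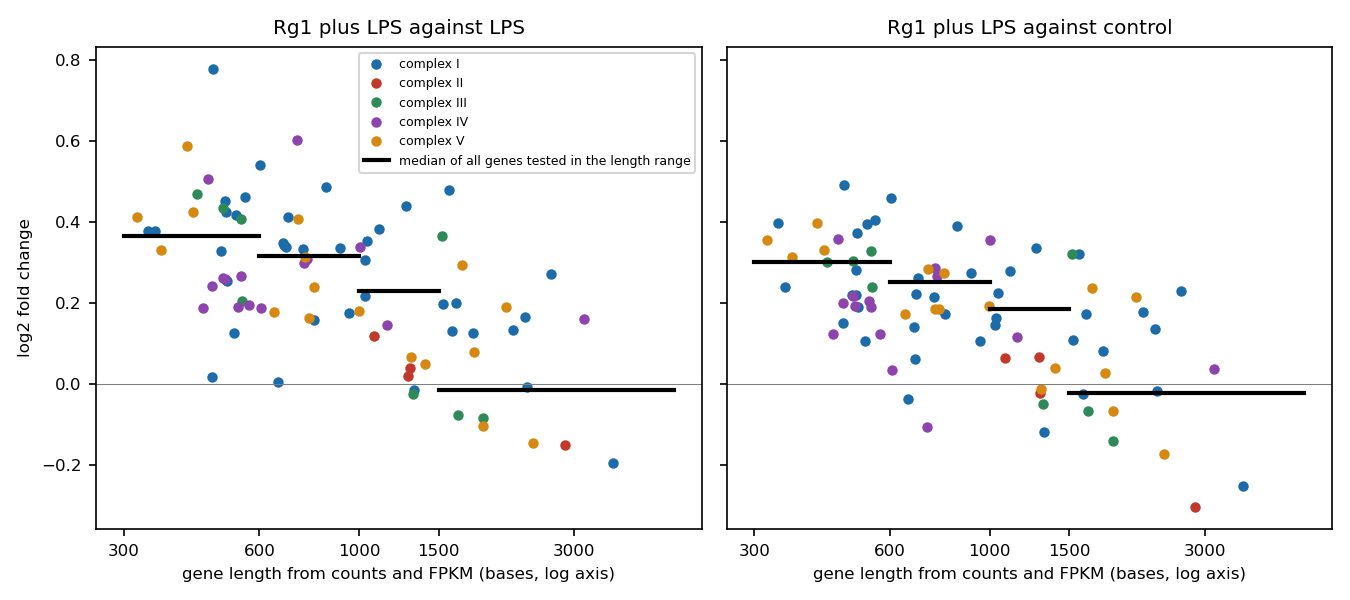
Log2 fold change of each member (points, coloured by complex) against gene length in bases on a log axis, with black lines for the median of all genes tested in each length range (the last line stands for all genes above 1500 bases). Points of short members scatter about the black lines at 0.37 and 0.32 in the left panel, and both members and lines fall with length.

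Complex I held the largest group. Of its 39 members, 31 were higher and 1 lower with Rg1 plus LPS than with LPS (median 0.33), and 4 higher and 6 lower with the length trend removed. The 7 core subunits, which carry the flavin and iron-sulfur groups and the quinone site, split: 4 were higher and 1 lower, with a median of 0.18. Among the other 32 members 27 were higher, with a median of 0.34. The core genes were longer, with a median length of 1608 bases against 684. With the length trend removed 0 core members were higher and 1 lower (median -0.07). Of the others 4 were then higher and 5 lower (median 0.00). Ndufa2, an accessory subunit of the NADH-oxidising arm, was 69.9, 70.9, 71.8, 79.4 and 85.1 CPM in LPS libraries and 99.2, 103, 108, 117 and 122 CPM in Rg1 plus LPS libraries. All control libraries lay between 78.6 and 81.2 CPM, so the Rg1 plus LPS range stood above both others (0.54 ± 0.07 against LPS, adjusted p = 6.45e-06; 0.46 ± 0.07 against control, adjusted p = 6.43e-05). Ndufa2 was still higher in both with the length trend removed (0.17, adjusted p = 0.0208 and 0.0265), but not against LPS when the replicate number was also a block in a fit of these 2 groups (0.16, adjusted p = 0.054).

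Ndufb7, a membrane arm subunit that faces the intermembrane space, was 68.8, 73.0, 74.8, 75.2 and 75.8 CPM in LPS and 89.9, 94.9, 96.5, 99.8 and 110 CPM in Rg1 plus LPS libraries, again with no overlap (0.42 ± 0.06, adjusted p = 1.41e-05). Ndufa5, an accessory subunit of the peripheral arm, was 28.1 to 33.9 CPM in LPS and 41.0 to 45.8 CPM in Rg1 plus LPS (0.46 ± 0.06, adjusted p = 1.53e-05). Ndufb1, of the membrane arm, was 34.3 to 42.7 CPM and 46.7 to 54.4 CPM in the same groups (0.38 ± 0.06, adjusted p = 0.000109). These 3 were at 0.02, 0.08 and -0.09 with the length trend removed and passed in neither direction. Ndufs6b had the highest fold change of all members against LPS (0.78 ± 0.24, adjusted p = 0.0137) at a low level. It was 0.734, 1.14, 1.45, 1.61 and 1.76 CPM in LPS and 1.68, 1.76, 2.20, 2.74 and 3.15 CPM in Rg1 plus LPS, and the ranges overlapped. Ndufs6b was at 0.36 with the length trend removed and did not pass (adjusted p = 0.214).

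A further 3 complex I members, singled out after their values were seen, were higher than in LPS with and without the length trend. Ndufa13, also known as GRIM-19, was 108, 111, 119, 121 and 126 CPM in LPS and 139, 156, 159, 161 and 180 CPM in Rg1 plus LPS libraries (0.44 ± 0.06, adjusted p = 3.86e-05; 0.20 and adjusted p = 0.00324 with the trend removed). Ndufv3, an accessory subunit near the NADH site, was 50.4 to 62.0 CPM in LPS and 67.8 to 89.4 CPM in Rg1 plus LPS (0.48 ± 0.08, and 0.28 with the trend removed). Ndufa11, of the membrane arm, was 68.5 to 76.3 and 76.6 to 99.3 CPM (0.27 ± 0.06, and 0.18). None of the 3 overlapped between these groups. Ndufa13 overlaps Tssk6 in the annotation and Ndufa2 overlaps Tmco6, and with the strand setting of the counting not given, reads of such pairs may not be told apart. In all, 27 of the 83 members overlap another annotated gene.

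Ndufs1, which encodes the large iron-sulfur core subunit and has 3657 bases, went the other way. It was 106, 106, 109, 111 and 114 CPM in LPS and 89.7, 92.6, 95.0, 97.5 and 102 CPM in Rg1 plus LPS libraries, below every LPS library (-0.19 ± 0.05, adjusted p = 0.00407). Control libraries had 108, 112, 112, 113 and 122 CPM, all above the Rg1 plus LPS range (-0.25 ± 0.05, adjusted p = 0.000864). Both calls held with the length trend removed, at -0.19 and -0.26. With library totals alone the difference from LPS was -0.08 and did not pass (adjusted p = 0.176). The other core members included Ndufs7, which binds the last iron-sulfur cluster before quinone, at 45.1 to 51.7 CPM in LPS and 56.5 to 70.1 CPM in Rg1 plus LPS (0.38 ± 0.06, adjusted p = 8.98e-05), which did not pass with the length trend removed (0.12, adjusted p = 0.0764). The flavin-binding Ndufv1 was at 0.13 ± 0.07 and did not pass.

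**Figure D3:**
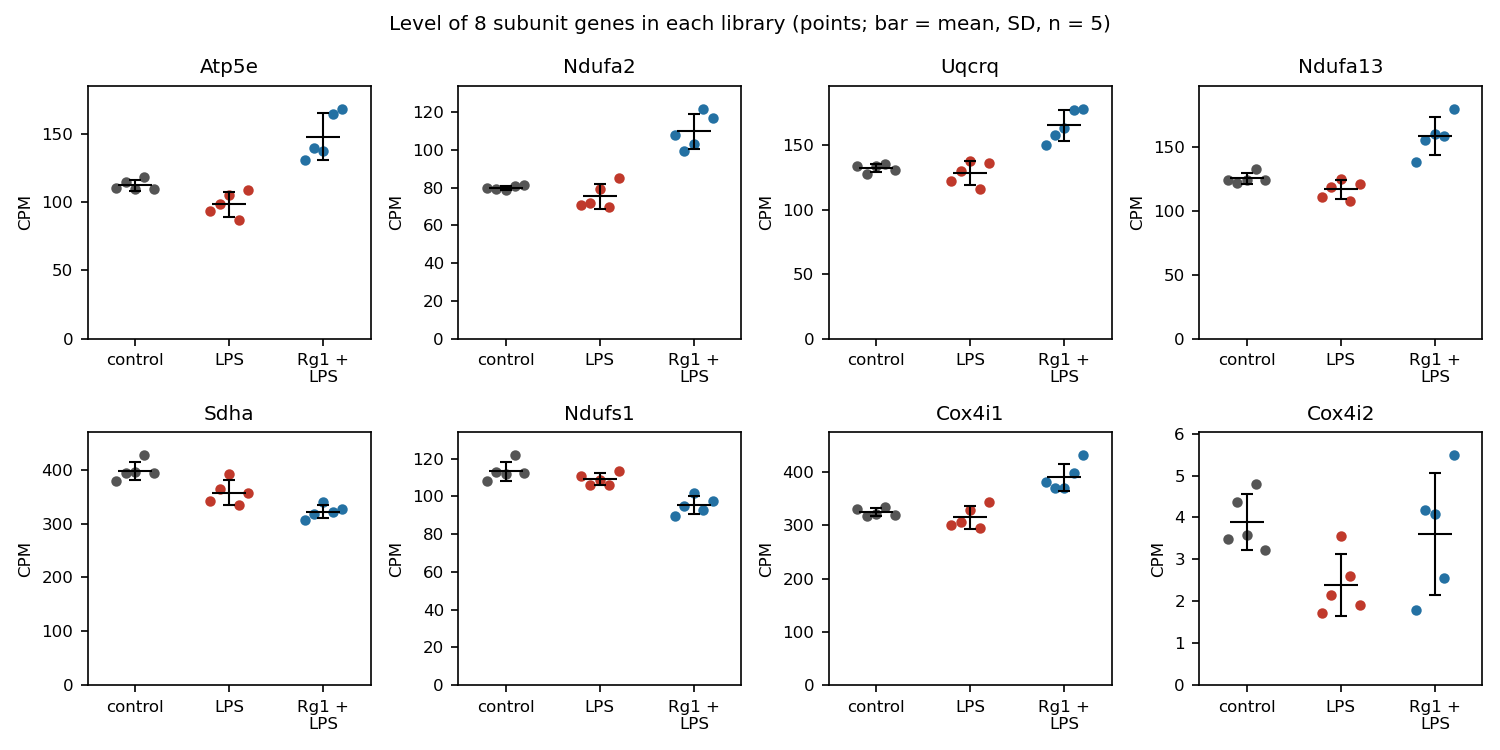
CPM (vertical axes from 0) of 8 members in each library (points), with bars for mean and SD of 5 libraries per group. Atp5e, Ndufa2, Uqcrq and Ndufa13 show Rg1 plus LPS libraries above all others, Ndufs1 shows them below all others, Sdha shows them below all control libraries, and the points of Cox4i2 overlap.

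Complex II, succinate dehydrogenase, had 0 members higher and 1 lower than in LPS, with a median of 0.03. At an unadjusted p under 0.05 the counts were 1 higher and 1 lower, and DESeq2 gave 0 higher and 1 lower. Sdha, the flavoprotein that oxidises succinate, was 335, 341, 357, 363 and 392.1 CPM in LPS and 306, 318, 321, 327 and 340 CPM in Rg1 plus LPS libraries, and the ranges overlapped (-0.15 ± 0.05, adjusted p = 0.034). Control libraries had 379, 394, 394, 395 and 427 CPM, all above the Rg1 plus LPS libraries (-0.30 ± 0.05, adjusted p = 0.000442). The difference of LPS from control itself was -0.15 ± 0.05 and did not pass (adjusted p = 0.0512), and it passed in 11 of the other settings run, among them DESeq2 (adjusted p = 0.0181) and the fit with the length trend removed (adjusted p = 0.048). The difference of Sdha from LPS lost its call when any of 9 single libraries was left out (control 4 or 5, LPS 2, 3 or 5, Rg1 plus LPS 1, 2, 4 or 5), without the filter on low counts (adjusted p = 0.0722), in a fit of these 2 groups (adjusted p = 0.076) and with library totals alone, where it was -0.04. The iron-sulfur subunit gene Sdhb was at 0.12 ± 0.05 and the membrane anchor genes Sdhc and Sdhd were at 0.04 ± 0.07 and 0.02 ± 0.05, and none passed. With the length trend removed all 4 complex II members were lower than in LPS (median -0.21) and lower than in control (median -0.18).

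In complex III, 5 of 8 members were higher than in LPS (median 0.29). The small subunits carried these calls. Uqcrh, the hinge protein beside cytochrome c1, was 118, 122, 124, 130 and 135 CPM in LPS and 154, 157, 169, 171 and 182 CPM in Rg1 plus LPS libraries (0.41 ± 0.05, adjusted p = 1.4e-05). Uqcrq was 116, 122, 130, 136 and 138 CPM in LPS and 150, 158, 163, 177 and 178 CPM in Rg1 plus LPS libraries (0.37 ± 0.06, adjusted p = 0.000131), and it was still higher with the length trend removed (0.16, adjusted p = 0.0156). It overlaps Gdf9 in the annotation. Uqcr11 was 59.9 to 80.2 CPM in LPS and 84.1 to 102 CPM in Rg1 plus LPS (0.47 ± 0.08, adjusted p = 0.000158). In all 3 the Rg1 plus LPS libraries lay above the LPS libraries. Uqcrh and Uqcr11 did not pass with the length trend removed, at 0.02 and 0.05 (adjusted p = 0.769 and 0.541). The large members did not pass: the core genes Uqcrc1 and Uqcrc2 were each at -0.08 and Uqcrfs1, the Rieske iron-sulfur protein gene, at -0.02. All 3 were lower than in LPS with the length trend removed, at -0.27, -0.25 and -0.26.

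Complex IV had 13 of 15 members higher than in LPS (median 0.26). With the length trend removed 6 were lower and 0 higher, and 7 and 1 at an unadjusted p under 0.05 in edgeR. Cox4i1, the general form of the subunit through which ATP regulates the enzyme, was 295, 300, 306, 329 and 345 CPM in LPS and 370, 371, 382, 398 and 431 CPM in Rg1 plus LPS libraries, without overlap (0.31 ± 0.06, adjusted p = 0.000383). Cox7b was 85.5, 86.0, 87.0, 92.1 and 99.2 CPM in LPS and 107, 109, 113, 119 and 120 CPM in Rg1 plus LPS (0.34 ± 0.05, adjusted p = 9.76e-05). Cox4i1 and Cox7b did not pass with the length trend removed, at -0.02 and 0.05 (adjusted p = 0.769 and 0.381). Cox6b1, which helps join the dimer, was 173 to 189 CPM and 206 to 229 CPM (0.24 ± 0.05, adjusted p = 0.00105), and Ndufa4, first assigned to complex I, was 139 to 156 CPM and 159 to 186 CPM (0.26 ± 0.06, adjusted p = 0.0011). The general isoform genes Cox6a1 (0.19 ± 0.06), Cox7a2 (0.30 ± 0.07) and Cox8a (0.27 ± 0.08) were also higher, with ranges that overlapped, and Cox7a2 and Cox8a did not pass with the length trend removed (-0.03 and -0.12). Cox7a2l, a factor that links complexes III and IV, passed at 0.15 ± 0.06 (adjusted p = 0.0396) and not with the replicate number as a block (adjusted p = 0.055), nor when any of 7 single libraries was left out (control 1, 2 or 3, LPS 1, 2 or 4, Rg1 plus LPS 5), without the filter on low counts or in a fit of these 2 groups. It was at -0.11 with the length trend removed. Cox6a1 did not pass without LPS replicate 4. Cox6a1, Cox6b1 and Ndufa4 were lower with the length trend removed, at -0.20, -0.17 and -0.14.

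The alternative isoforms followed the general ones only in part. Cox7a1, known from heart and muscle, was 1.72 to 3.01 CPM in LPS and 2.61 to 4.10 CPM in Rg1 plus LPS, with overlap (0.51 ± 0.18, adjusted p = 0.0324), and its call was lost when LPS replicate 1, 4 or 5 or Rg1 plus LPS replicate 3 or 5 was left out, without the filter on low counts and in a fit of these 2 groups. Cox7a1 was at 0.09 with the length trend removed and did not pass (adjusted p = 0.683). Cox4i2, known from lung and from low oxygen, was 3.22, 3.49, 3.58, 4.36 and 4.80 CPM in control, 1.72, 1.90, 2.14, 2.60 and 3.56 in LPS and 1.79, 2.55, 4.08, 4.17 and 5.48 in Rg1 plus LPS libraries. None of its differences passed (LPS against control -0.71 ± 0.27, adjusted p = 0.065). Cox4i2 passed in LPS against control without LPS replicate 3 (-0.91, adjusted p = 0.0185), and in 6 other settings at adjusted p up to 0.0483. Its difference from LPS with Rg1 (0.60 ± 0.27, adjusted p = 0.0754) passed with library totals alone and when LPS replicate 3, or replicate 1 or 4 of the Rg1 plus LPS group, was left out. Cox6b2 was 57.4 to 78.1 CPM in control, 43.4 to 73.6 in LPS and 40.2 to 92.1 in Rg1 plus LPS, and none of its differences passed. For both Cox4i2 and Cox6b2, Rg1 plus LPS replicate 1 was the lowest and replicate 5 the highest library of the group.

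In complex V, 11 of 17 members were higher than in LPS (median 0.19), and 1 higher and 6 lower with the length trend removed. Atp5e, which encodes the small epsilon subunit of the F1 stalk, had the second highest fold change among members that passed, after Ndufs6b. It was 86.5, 93.1, 98.3, 105 and 109 CPM in LPS and 131, 137, 139, 164 and 168 CPM in Rg1 plus LPS libraries, with control libraries at 109, 109, 110, 115 and 118 CPM. The Rg1 plus LPS libraries stood above both other groups (0.59 ± 0.08 against LPS, adjusted p = 1.4e-05; 0.40 ± 0.08 against control, adjusted p = 0.000834). Atp5e was at 0.15 against LPS with the length trend removed (adjusted p = 0.0203) and at 0.06 against control, where it did not pass. Against LPS it did not pass either when the replicate number was also a block in a fit of those 2 groups (0.14, adjusted p = 0.0628). The membrane subunit genes Atp5j2 (0.43 ± 0.06, adjusted p = 4.37e-05) and Atp5mpl (0.41 ± 0.05, adjusted p = 1.39e-05) were 105 to 134 and 65.2 to 76.5 CPM in LPS, and 153 to 176 and 88.1 to 94.6 CPM in Rg1 plus LPS. Neither passed with the length trend removed (-0.00 and 0.07).

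The large F1 subunit genes of ATP synthase had lower values with Rg1 and did not pass. Atp5b was 1017 to 1169 CPM in LPS and 939 to 1080 CPM in Rg1 plus LPS libraries (-0.10 ± 0.06, adjusted p = 0.156), and Atp5a1 was 693 to 818 and 642 to 755 CPM (-0.15 ± 0.06, adjusted p = 0.061). The difference of Atp5a1 passed with DESeq2 (adjusted p = 0.0181), with the replicate number as a block in a fit of these 2 groups (adjusted p = 0.0386), and when LPS replicate 4 or the fifth library with Rg1 was left out. Atp5c1, the rotor shaft gene, was at 0.08 ± 0.06 and did not pass. Of the 3 genes for the c ring, Atp5g1 and Atp5g2 were higher, both at 0.18 ± 0.06 (-0.11 and -0.18 with the length trend removed, where Atp5g2 was lower), and Atp5g3 was at 0.05 ± 0.05 and did not pass. Atp5a1 and Atp5b were lower than in LPS with the length trend removed, at -0.26 and -0.27.

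**Figure D4:**
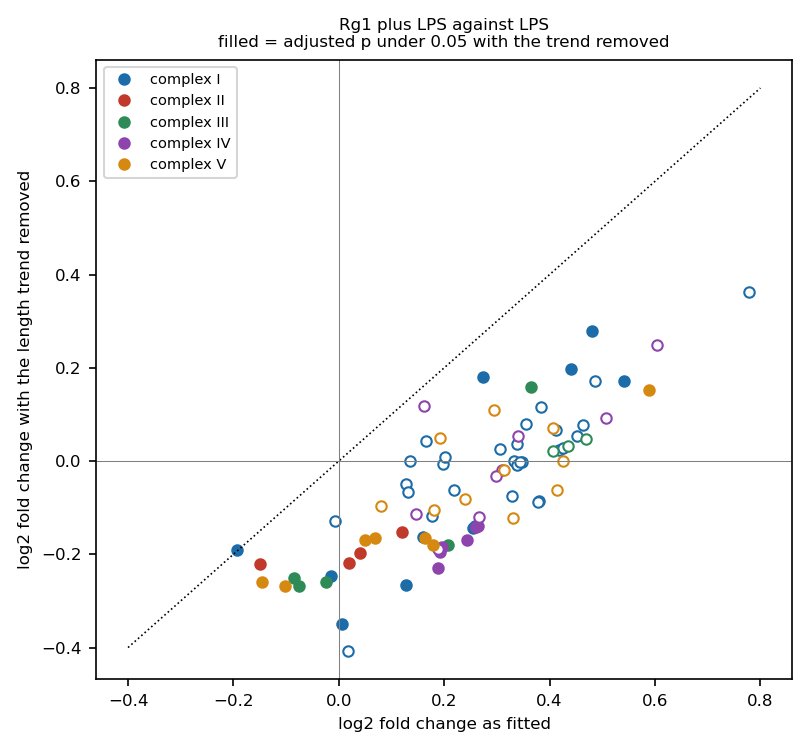
Log2 fold change of each member for Rg1 plus LPS against LPS as fitted (horizontal axis) and with the length trend removed (vertical axis), with filled points for adjusted p under 0.05 in the second fit and a dotted line of equality. Most points right of 0 fall near or below 0 on the vertical axis: 6 filled points lie above 0 and 26 below.

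Against untreated control, Rg1 plus LPS cultures also had higher levels of most subunit genes. Both contrasts share the Rg1 plus LPS libraries, so their agreement is no independent evidence. Here 46 members were higher and 4 lower, against 18.8% and 18.1% of all genes tested, with a median log2 fold change of 0.19 beside 0.01 over all genes. In 37 members the Rg1 plus LPS libraries lay above all control libraries, against 13.2% of all genes. With the length trend removed, 4 members were higher and 18 lower (all genes: 15.1% and 15.7%), with a median of -0.07. The 4 were Ndufa2, Ndufa13, Uqcrq and Cox7b. Spearman's rho of log2 fold change with length was -0.31 across all genes and -0.56 across members.

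By complex, 22 of 39 members of complex I, 5 of 8 of complex III, 8 of 15 of complex IV and 11 of 17 of complex V were higher than in control. Ndufb7 (0.40 ± 0.06, adjusted p = 4.63e-05), Ndufa5 (0.41 ± 0.06, adjusted p = 9.66e-05) and Ndufb1 (0.40 ± 0.06, adjusted p = 0.000112) led among members other than Ndufa2 and Atp5e, each without overlap of the ranges. With the length trend removed these were at 0.09, 0.11 and 0.04 and did not pass (adjusted p = 0.101, 0.239 and 0.606). The 4 lower members were Ndufs1, Sdha, the F1 alpha subunit gene Atp5a1 and the complex III core gene Uqcrc2. Atp5a1 was 746, 757, 766, 777 and 809 CPM in control and 642, 644, 683, 698 and 755 CPM in Rg1 plus LPS libraries (-0.17 ± 0.06, adjusted p = 0.035). Uqcrc2 was 171, 171, 172, 180 and 183 CPM in control and 154, 156, 158, 160 and 169 CPM in Rg1 plus LPS libraries, without overlap (-0.14 ± 0.05, adjusted p = 0.0421). The calls of Atp5a1 and Uqcrc2 were both lost without any 1 of control replicates 1 to 4 or Rg1 plus LPS replicates 1, 2 or 4, and with library totals alone. With the length trend removed all 4 were lower, Atp5a1 and Uqcrc2 both at -0.28.

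On GRCm38.p6 a selection of the members named above, not a ranking, lies as follows: Ndufc2 on chromosome 7 at 97400003 to 97407800, Ndufs1 on 1 at 63143592 to 63176822, Sdha on 13 at 74322255 to 74350240, Uqcrc2 on 7 at 120635189 to 120659523, Ndufa13 on 8 at 69894163 to 69902558, Uqcrq on 11 at 53427922 to 53430831 and Atp5e on 2 at 174461075 to 174464101.

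Seen over all groups, the mean level was highest in Rg1 plus LPS for 69 members, in control for 12 and in LPS for 2. It was lowest in LPS for 62, in control for 12 and in Rg1 plus LPS for 9. The same counts over all genes are not given here. The length trend was not removed from these levels or from the sums below, and short genes outside the member list moved the same way. Members took 1.00 to 1.08% of all counts in control, 0.911 to 1.02% with LPS and 1.11 to 1.22% with Rg1 plus LPS, and library totals ran from 34.2 to 41.8 M counts. Complex I summed to 2878 ± 73.8 CPM (SD, n = 5) in untreated cultures, 2717 ± 158 CPM after LPS and 3226 ± 179 CPM with Rg1 before LPS. The Rg1 plus LPS libraries, at 2994 to 3489 CPM, lay above all LPS libraries and overlapped control at its highest library of 3005 CPM. Complex IV summed to 1927 ± 73.3, 1861 ± 112 and 2206 ± 128 CPM, and the Rg1 plus LPS libraries stood above all others. Complex V, at 3760 ± 108, 3714 ± 205 and 3888 ± 169 CPM, and complex III, at 999 ± 33.1, 966 ± 64.5 and 1086 ± 60.6 CPM, overlapped between groups. Complex II was 788 ± 29.3, 739 ± 41.4 and 720 ± 31.9 CPM, with all Rg1 plus LPS libraries below all control libraries.

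**Figure D5:**
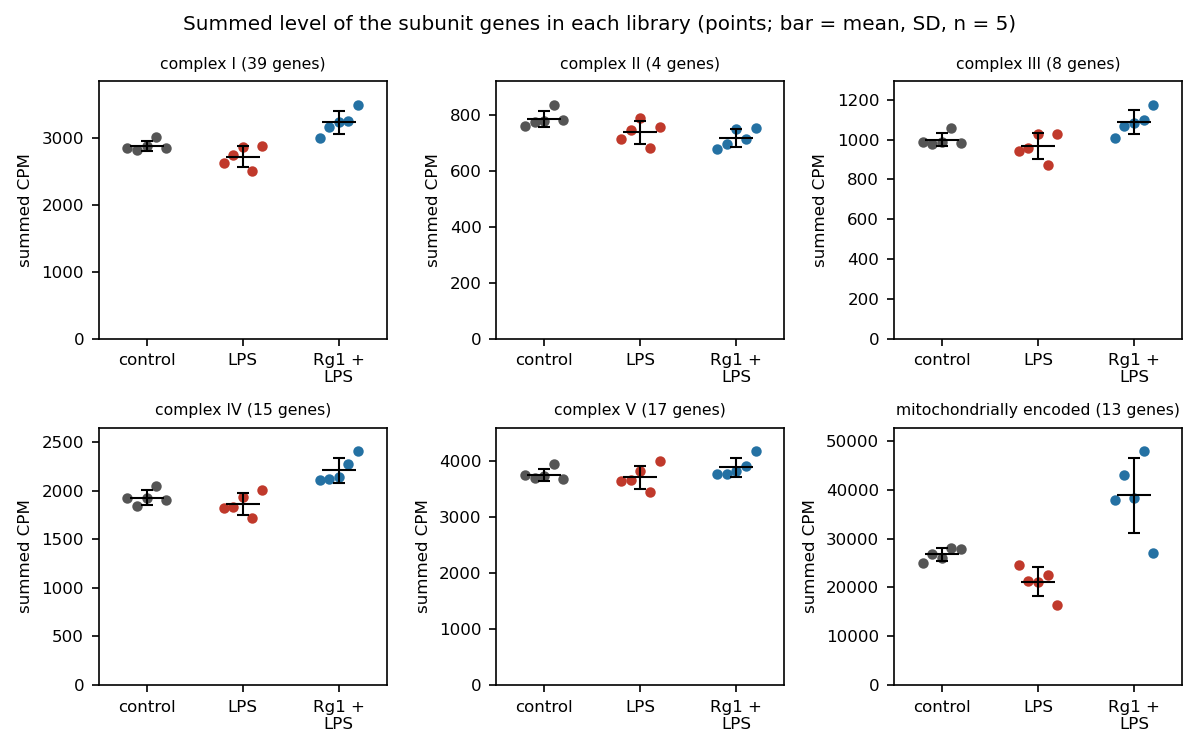
Summed CPM (vertical axes from 0) of the members of each complex and of the 13 mitochondrially encoded subunit genes in each library (points), with bars for mean and SD of 5 libraries per group. The mean is highest in Rg1 plus LPS in all panels but complex II, where it is highest in control. Only in complex IV do the Rg1 plus LPS points lie above all others, and the other panels show overlap between groups.

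The 13 subunits encoded by mitochondrial DNA, which the nuclear members join, differed more between groups and between libraries. Their summed level was 26776 ± 1281 CPM (SD, n = 5) in untreated cultures, 21219 ± 2992 CPM after LPS and 38896 ± 7691 CPM with Rg1 before LPS. The Rg1 plus LPS libraries, at 27164 to 47913 CPM, all lay above the LPS libraries (16474 to 24640) and overlapped the control libraries (25060 to 28088). Against LPS 9 of 13 were higher with Rg1 (median 1.11), beside 22.2% of all genes tested. With the length trend removed 8 were higher, beside 17.7% of all genes. CYTB, the mitochondrially encoded core of complex III, rose by 1.11 ± 0.11 (adjusted p = 4.75e-07), from 3683 ± 426 to 7969 ± 1233 CPM, and ND4 of complex I rose by 1.22 ± 0.13. Both had fallen with LPS, CYTB by 0.40 and ND4 by 0.50 on the log2 scale. Because these genes took 1.58 to 4.98% of counts, the fit was repeated without them. In that fit 64 members were higher and 2 lower than in LPS, and 4 lower in LPS than in control. Its shares over all genes are not given here.

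Assembly factors build the complexes but stay out of them. Of 48 tested, 27 were higher and 2 lower than in LPS (median 0.31), beside 22.2% and 23.2% of all genes. With the length trend removed 11 were higher and 3 lower, beside 17.7% and 21.5% of all genes, with a median of 0.11. Coa6, a copper handling factor of complex IV, was 26.1 ± 1.49 CPM in control, 22.1 ± 1.75 CPM in LPS and 36.9 ± 3.02 CPM in Rg1 plus LPS (0.74 ± 0.07 against LPS, adjusted p = 5.83e-07; 0.40 with the trend removed). Coa4 had a difference of 1.31 ± 0.16 at 2.34 ± 0.490 and 5.81 ± 0.805 CPM. Lrpprc, which stabilises mitochondrial messenger RNA, was lower (-0.38 ± 0.09), as was Acad9 (-0.16 ± 0.05), a factor of complex I assembly.

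Regulators and neighbours of the chain were counted in the same way. Of 18 genes for mitochondrial biogenesis and mitochondrial DNA expression 5 were higher and 4 lower than in LPS, which is close to the shares over all genes (22.2% and 23.2%), and 8 and 2 with the length trend removed (17.7% and 21.5% of all genes). Gabpb1, which encodes a GABP subunit, was 19.4 ± 1.37 CPM in control, 38.2 ± 2.43 CPM in LPS and 20.2 ± 6.64 CPM in Rg1 plus LPS (0.98 ± 0.16 for LPS against control; -0.92 ± 0.16 for Rg1 plus LPS against LPS). Pprc1, a coactivator related to PGC-1 alpha, was 37.5 ± 5.92, 49.8 ± 4.12 and 21.6 ± 3.33 CPM, lower with Rg1 than in LPS by a log2 fold change of -1.20 ± 0.12 (adjusted p = 4.17e-07). Ssbp1, which coats single-stranded mitochondrial DNA, was higher than in LPS (0.52 ± 0.07). Among 21 genes of pyruvate dehydrogenase and the citric acid cycle 1 was higher and 4 lower than in LPS, the latter close to the share over all genes, and 7 were lower with the trend removed. Cs, citrate synthase, was at -0.22 ± 0.05 and Dlst, of the oxoglutarate dehydrogenase complex, at -0.22 ± 0.05.

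Ribosomal protein genes were also mostly higher with Rg1. Over all genes tested, 22.2% were higher and 23.2% lower than in LPS, and 17.7% and 21.5% with the length trend removed. Their median length was 821 bases for the cytosolic and 1506 bases for the mitochondrial genes tested. Of 78 mitochondrial ribosomal protein genes 56 were higher than in LPS (median 0.29), and 25 higher and 2 lower with the length trend removed. Of 87 cytosolic ribosomal protein genes 66 were higher and 1 lower (median 0.28), and 8 higher and 9 lower with the trend removed. Of 13 genes for cristae and supercomplex organisation 9 were higher and 1 lower, and 3 and 2 with the trend removed. Chchd6, of the cristae junction complex, was at 0.50 ± 0.07 and the inner membrane fusion gene Opa1 at -0.36 ± 0.08.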

How the data were processed

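Raw counts per gene symbol and FPKM were deposited by the authors for each of the 15 libraries. Per the labels' protocols, TRIzol was used for extraction and the VAHTS Universal V6 kit for the libraries. Genome builds GRCm38 and mm10 are named per the submitters' processing notes. Not given in the sources used here are the aligner, the counter, the annotation and the strand setting. The deposited FPKM equalled count over gene length and total to a relative deviation of at most 7.22e-10, which gave the gene lengths; 37 damaged rows were left out of the FPKM only. In the Rg1 plus LPS group the treatment labels count up from Rg1 to Rg5; its titles and the design text, which were followed, give 5 replicates of Rg1.

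Members and lists were chosen with earlier results of these data known. Counts were tested with edgeR 4.0.16 in R 4.3.3: genes kept by filterByExpr (15362), TMM scaling (factors 0.952 to 1.06), 1 quasi-likelihood fit of all 15 libraries with robust dispersion and the group as its term, two-sided F-tests, Benjamini-Hochberg adjustment over all genes, called at adjusted p under 0.05. CPM in the results use TMM-scaled library sizes, except in the choice of members. For the length trend, the log2 CPM of each gene was taken as its deviation from the gene's mean over the libraries of the fit. A lowess of these deviations on log2 length (span 0.3) was fitted in each library and entered as an offset. The method was checked on simulated counts. One member is counted but not reported by itself here. Members named with values were, per comparison, the 4 highest and 4 lowest fold changes that passed, alternative isoforms, and up to 3 per direction and complex by adjusted p in Rg1 plus LPS against LPS; of each related list, up to 2 per direction. Ndufa11, Ndufa13, Ndufv3 and the core, complex II and ATP synthase members beyond that rule were singled out after their values were seen. Alternatives were library totals, no mitochondrially encoded genes, DESeq2 1.42.0, no filter, 2-group fits, the replicate number as a block, removal of the length trend, and each library left out.

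Between Rg1 plus LPS and LPS, same-numbered libraries deviated together (correlations of 0.354, 0.273, 0.719, 0.658 and 0.552). Rg1 plus LPS replicates 2 to 5 matched their own number best, while replicate 1 matched LPS replicate 4 best. The main fit has no term for the number, so its p-values are unpaired. Pairing enters only where the replicate number is named as a block. In the other comparisons at least 1 correlation was below 0.1.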

Additional observations from a re-analysis of the deposited data

Results flagged for a closer look

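By a gap test at the 95% level (Dixon), 5 of 99 groups of 5 values held a library that stood apart. The groups share libraries and genes, so this number cannot be set against the 1 in 20 that chance gives for independent groups. Control replicate 4 was high in 4 of the 5. Its summed level of all members was 10900 CPM against 10100 to 10300 CPM in the other control libraries. For complex III it was 1060 CPM against 978 to 988, for complex V 3950 CPM against 3690 to 3740, and for Uqcrh 137 CPM against 131 to 132. Rg1 plus LPS replicate 1 had the lowest Uqcr11 level of its group, 84.1 CPM against 97.7 to 102.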

How the results depend on the processing

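The number of members higher in Rg1 plus LPS than in LPS was 60, and 51 to 63 with single libraries left out, while 1 to 3 were lower. Against control 35 to 50 were higher and 2 to 4 lower with single libraries left out. In LPS against control 0 were higher in every setting run, and 1 to 11 were lower with single libraries left out. Counts in this section are of members alone. The shares over all genes in the altered settings are not given, other than those stated above.

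Lower members in LPS against control numbered 15 with library totals, 4 without mitochondrially encoded genes, 6 in a 2-group fit and 3 with DESeq2. Against LPS, lower members with Rg1 numbered 0 with library totals, 1 without the filter, 1 in a 2-group fit and 0 at an absolute log2 fold change of at least 0.26. Against control, 2 were lower with library totals, and 25 were higher and 1 lower at that fold change. Library totals shift the median of all genes to 0.14 in Rg1 plus LPS against LPS. The cause of these shifts was not tested, other than for the stricter fold.

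With the replicate number as a block, 58 members were higher and 2 lower than in LPS, 46 higher and 4 lower than in control, and 4 were lower in LPS than in control, where the numbers do not pair the samples by correlation. Cox7a2l against LPS was the call among named members that the block ended. With the length trend removed together with the replicate block, 6 were higher and 24 lower than in LPS, 3 higher and 17 lower than in control, and 2 lower in LPS than in control. Chosen after seeing the data, the block in a 2-group fit gave 58 higher and 3 lower than in LPS, and with the length trend removed also 4 higher and 24 lower.

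The length trend alone left 6 higher and 26 lower than in LPS, and 4 higher and 18 lower than in control. It turned the sign of some named members. Against LPS, their log2 fold changes with the trend removed, with the block added, and with the block in a 2-group fit were -0.0019, -0.0051 and -0.0121 for Ndufc2, -0.087, -0.0876 and -0.099 for Ndufb1, and -0.0191, -0.0197 and -0.0244 for Cox4i1. In the same order they were -0.196, -0.197 and -0.2043 for Cox6a1, -0.1683, -0.169 and -0.1778 for Cox6b1, -0.0323, -0.0326 and -0.038 for Cox7a2, and -0.1138, -0.1141 and -0.1175 for Cox7a2l. They were -0.1207, -0.1207 and -0.1262 for Cox8a, and -0.1392, -0.1399 and -0.1487 for Ndufa4. Atp5j2 was at -0.0004 with the trend removed and at -0.0085 with the block in a 2-group fit. Against control, with the trend removed and with the block added, they were -0.0932 and -0.0936 for Cox6a1, -0.1139 and -0.1153 for Cox6b1, -0.0899 and -0.0911 for Ndufa4, and -0.0235 and -0.0248 for Uqcr11, and -0.2053 and -0.2144 for Ndufc2 (0.0629 as fitted). Members near 2 to 3 CPM rest on few counts and overlapped between groups.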
